A study of Danio rerio with 16 samples.

Results

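Germ cells of the zebrafish (Danio rerio) gonad were followed through 5 transcripts that mark them: ddx4 (ENSDARG00000014373, also called vasa), dazl (ENSDARG00000036214), piwil1 (ENSDARG00000041699), piwil2 (ENSDARG00000062601) and nanos3 (ENSDARG00000068255). The genes were taken by identifier from a table of 31953 genes. All 5 passed the filter on low counts, which left 21683 genes for testing, and a table of gene names pairs the 5 identifiers with DDX4, DAZL, PIWIL1, PIWIL2 and NANOS3.

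Germ cells are set aside early in the embryo and later become either oocytes or sperm. Zebrafish larvae first form an ovary-like gonad with early oocytes, and in fish that become males these oocytes are lost while a testis forms, so germ cell number and oocyte content bear on sex in this species. The 5 genes act at different steps. Ddx4 is a DEAD-box RNA helicase of germ granules. Piwil1 (Ziwi) and Piwil2 (Zili) are Argonaute-family proteins that bind piRNAs, the small RNAs that silence transposable elements in the germ line. Dazl and Nanos3 are RNA-binding proteins that act on germ cell mRNAs, Dazl mainly in promoting their translation and Nanos3 in germ cell maintenance.

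RNA came from pooled gonads of fish mutant for the microRNA gene miR-214, made with CRISPR-Cas9 and crossed to a vasa:eGFP germ cell reporter, with 4 groups of 4 libraries. Maternal-cross KO fish (homozygous) and maternal-cross HET fish (heterozygous) had a homozygous mother and a heterozygous father. Paternal-cross KO and paternal-cross HET fish had a heterozygous mother and a homozygous father. All 16 libraries carry the strain label "mz 06de, tg(vasa:eGFP)" and the breed TUE, every fish has at least 1 mutant copy, and there was no wild-type group. The mutation is thus a whole-animal change, not limited to germ cells. Each library pooled 8 or 9 gonads in the KO groups, 7 in maternal-cross HET and 9 in paternal-cross HET. The sex of the pooled fish is not labelled. The age label reads 27 days post fertilization, whereas the sample titles say 31 days. The labels do not say whether pools came from separate clutches, so p-values measure the spread between pools.

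Library totals ran from 19.9 to 30.1 M (mega) counts, with paternal-cross HET deepest at 26.4 to 30.1 M. At this depth the 5 genes were counted 706 to 35510 times per library, so counting error was small beside the spread between pools. The annotated mir214 locus itself, a hairpin too short to be sampled well in mRNA libraries, had 0, 0, 1 and 4 counts in maternal-cross KO and 3, 4, 9 and 3 in maternal-cross HET. It had 5, 7, 3 and 4 counts in the libraries labelled paternal-cross KO and 0, 2, 0 and 0 in those labelled paternal-cross HET. In the paternal cross the locus therefore stood higher in the libraries labelled KO, at 0.192 ± 0.0757 CPM (counts scaled by library size) against 0.0187 ± 0.0374 CPM in those labelled HET (SD, n = 4 each). The two-sided exact permutation p was 0.0286, the lowest that 4 against 4 libraries can reach, and 0.0429 when adjusted over 3 tests. Maternal-cross KO libraries averaged 0.0532 ± 0.078 CPM there, and maternal-cross HET libraries 0.201 ± 0.104 CPM (SD, n = 4 each; exact permutation p = 0.0857, adjusted p = 0.0857). The paternal-cross difference rests on 19 counts in KO and 2 in HET. If the mutation removes the counted bases, these counts go against the genotype labels of the paternal cross. Under the same condition the 1 and 4 counts in maternal-cross KO replicates 3 and 4 go against their KO label too. The labels do not give the bases removed by the mutation, so whether the counted bases lie inside it was not tested. Each direction given here, in the paternal and in the maternal cross, holds for the libraries as labelled.

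Oocyte transcripts were abundant in all 4 groups. The zona pellucida genes zp2.3, zp2.1 and zp3b, which encode the coat of the oocyte, averaged 5393, 3170 and 3100 CPM over the 16 libraries. Of 8 spermatid genes in the table, tssk6 and tekt2 had at most 2 and 6 counts in any library and spag6 and tekt1 at most 29 and 21. The other 4 were detected in every library, spata18 at 451 to 1762 counts, cfap20 at 393 to 735, ropn1l at 74 to 172 and spata4 at 32 to 101. The oocyte linker histone gene h1m was at 0 in all 16 libraries. Whether reads can be assigned to its identifier was not tested, so this 0 may not mean absence of the transcript.

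Levels are given here as CPM on library sizes scaled by the trimmed mean of M values (TMM). Differences are log2 fold changes from edgeR's quasi-likelihood test, with Benjamini-Hochberg adjustment over all 21683 genes and a threshold of 0.05.

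For ddx4 and both Piwi genes, KO and HET did not differ past the threshold in either cross. In the paternal cross dazl and nanos3 fell in the libraries labelled KO, dazl to a fold of 0.768 and nanos3 to a fold of 0.606 of the level in those labelled HET. In the maternal cross 0 of the 5 genes passed with edgeR, 0 had an unadjusted p under 0.05, and DESeq2 called 0. The paternal-cross count of 2 of 5, both lower, stands against 23.2% of all genes tested that passed in either direction in that comparison and 9.14% that passed as lower. Were the paternal-cross labels exchanged, both genes would be higher in KO, with 9.14% of all genes higher and 14.1% lower. In the maternal-cross comparison 0.198% of all genes passed, 0.157% as higher and 0.0415% as lower. There 1931 of the 21683 genes tested had an unadjusted p under 0.05, against 8623 in the paternal-cross comparison. In bulk tissue, fewer germ cells and less RNA per germ cell cannot be told apart.

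**Figure D1:**
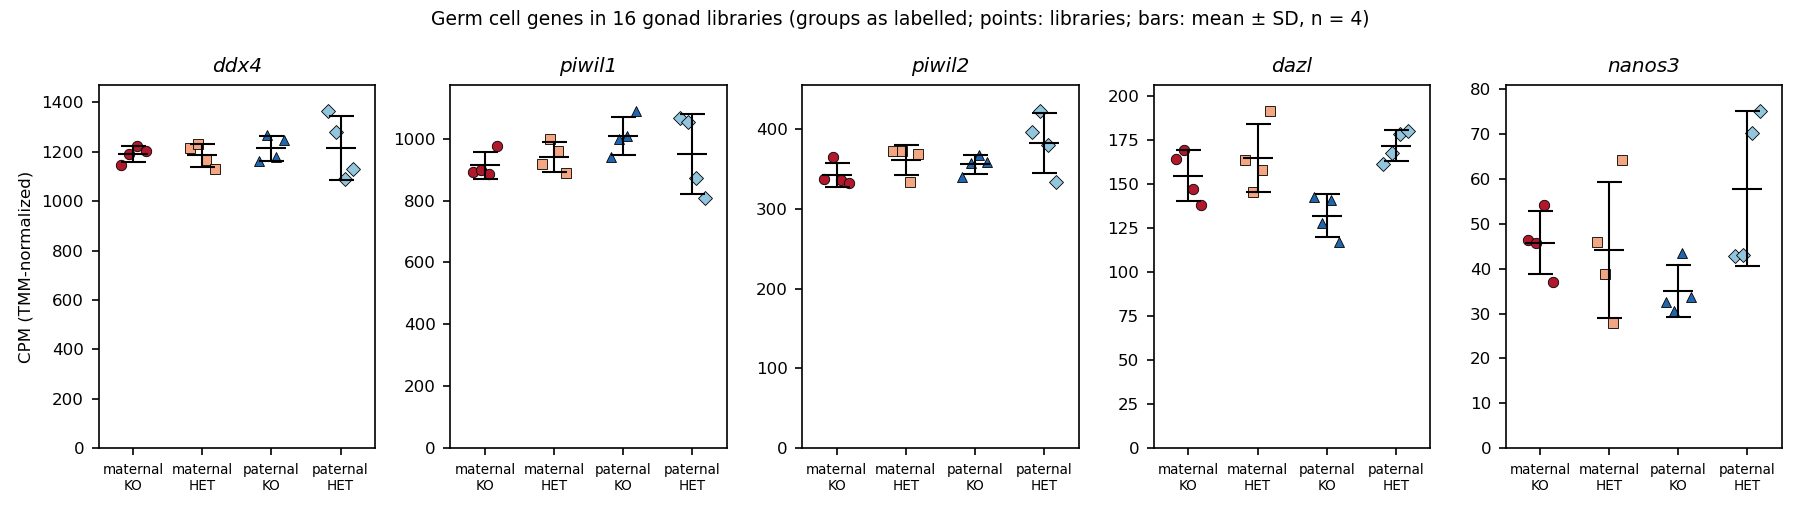
Level of each germ cell gene in every library (vertical axis, TMM-normalized CPM from 0; horizontal axis, the 4 groups as labelled; points are libraries, bars are mean ± SD, n = 4). The paternal-cross KO points of dazl, 117 to 143 CPM, lie below all paternal-cross HET points, 162 to 180 CPM, whereas the ddx4 means of the 4 groups lie between 1186 and 1215 CPM. How many of all genes separated as dazl did was not counted.

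The helicase gene ddx4 was the steadiest of the 5. Its 4 libraries held 1147, 1189, 1224 and 1205 CPM in maternal-cross KO, against 1214, 1233, 1165 and 1131 CPM in maternal-cross HET. They held 1162, 1268, 1180 and 1247 CPM in the libraries labelled paternal-cross KO, against 1363, 1279, 1089 and 1130 CPM in those labelled paternal-cross HET. The KO values lay inside or overlapped the HET range in both crosses. Across all 16 libraries the highest value was 1.25 times the lowest. Only 4.59% of the genes tested varied less between pools of the same group, where the within-group SD of ddx4 was 0.0886 on the log2 scale. The piwil2 gene was close, at 0.0907 and 5.18%. By mean CPM ddx4 ranked 86, and the share was not set against genes of like abundance. In the libraries labelled paternal-cross HET the SD was 10.5% of the mean for ddx4, 5.14% for dazl, 9.78% for piwil2, 13.6% for piwil1 and 29.9% for nanos3.

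The ddx4 log2 fold change between KO and HET was 0.01 in the maternal cross (SE 0.08, 95% interval -0.15 to 0.17, edgeR adjusted p = 0.993) and -0.0011 in the paternal cross (SE 0.08, interval -0.16 to 0.16, edgeR adjusted p = 0.992). The paternal-cross interval spans folds of 0.895 to 1.12. The reporter transgene is driven by vasa sequence, and whether any of its transcript is counted as ddx4 was not tested. All 4 groups carry it.

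The Piwi genes varied little between groups. The piwil1 gene averaged 913 ± 43.1 CPM in maternal-cross KO and 940 ± 47.8 CPM in maternal-cross HET, and 1009 ± 60.8 CPM in the libraries labelled paternal-cross KO and 951 ± 129 CPM in those labelled paternal-cross HET (SD, n = 4 each). Its paternal-cross HET libraries formed a high pair, replicates 1 and 2 at 1066 and 1054 CPM, and a low pair, replicates 3 and 4 at 874 and 809 CPM. The KO values, 939 to 1088 CPM, overlapped that range. Its log2 fold change was -0.04 in the maternal cross (SE 0.09, 95% interval -0.23 to 0.14, edgeR adjusted p = 0.948) and 0.09 in the paternal cross (SE 0.09, interval -0.10 to 0.27, edgeR adjusted p = 0.485).

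The piwil2 gene averaged 342 ± 15.1 CPM in maternal-cross KO and 361 ± 18.6 CPM in maternal-cross HET, and 355 ± 11.8 CPM in the libraries labelled paternal-cross KO and 382 ± 37.4 CPM in those labelled paternal-cross HET (SD, n = 4 each). The groups overlapped in both crosses. Its log2 fold change was -0.08 in the maternal cross (SE 0.07, 95% interval -0.23 to 0.08, edgeR adjusted p = 0.852) and -0.10 in the paternal cross (SE 0.07, interval -0.26 to 0.05, edgeR adjusted p = 0.297).

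The dazl gene was lower in the libraries labelled paternal-cross KO. Its libraries held 143, 128, 141 and 117 CPM in those labelled paternal-cross KO, against 162, 168, 178 and 180 CPM in those labelled paternal-cross HET. Its raw counts were 3012 to 3646 in KO and 4211 to 5172 in HET. Library totals also differed, at 22.6 to 24.3 M in KO and 26.4 to 30.1 M in HET, which widens the gap in raw counts. In CPM, which is scaled for depth, all 4 KO libraries lay below all 4 HET libraries. How many of all genes tested separated in this way was not counted, and 23.2% of them passed the threshold in this comparison. The log2 fold change was -0.38 (SE 0.09, 95% interval -0.58 to -0.18, edgeR adjusted p = 0.014). Without paternal-cross KO replicate 4, the lowest library, it was -0.33 and the edgeR adjusted p was 0.0569. It passed under the other 23 alternatives, with edgeR or DESeq2.

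In the maternal cross dazl held 164, 170, 147 and 138 CPM in KO libraries, against 164, 146, 158 and 191 CPM in HET libraries. The 2 ranges overlapped, and the log2 fold change was -0.09 (SE 0.09, 95% interval -0.28 to 0.11, edgeR adjusted p = 0.876). The interval does not reach the paternal-cross estimate, but the difference between the crosses did not pass its own test. That interaction was 0.29 on the log2 scale (SE 0.13, 95% interval 0.01 to 0.57, unadjusted p = 0.0405, edgeR adjusted p = 0.256), where 0.189% of all genes passed, 0.06% with a positive and 0.129% with a negative value.

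The nanos3 gene had the widest spread of the 5. Its libraries held 32.5, 30.5, 43.4 and 33.7 CPM in those labelled paternal-cross KO, against 42.7, 43.1, 70.2 and 75.0 CPM in those labelled paternal-cross HET. KO replicate 3, at 43.4 CPM, overlapped the 2 lower HET libraries, and the HET libraries fell into a low pair (replicates 1 and 2) and a high pair (replicates 3 and 4). The log2 fold change was -0.72 (SE 0.23, 95% interval -1.20 to -0.24, edgeR adjusted p = 0.0324). The gene was lower in KO as labelled under all 24 alternatives and passed in 18. Removing 1 of 5 libraries ended the call while the fold change stayed between -0.70 and -0.57. It was -0.69 without KO replicate 1 (edgeR adjusted p = 0.0727), -0.66 without KO replicate 2 (0.0772) and -0.70 without KO replicate 4 (0.0901). It was -0.62 without HET replicate 3 (edgeR adjusted p = 0.103) and -0.57 without HET replicate 4 (0.0979).

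In the maternal cross nanos3 held 46.3, 45.6, 54.2 and 37.0 CPM in KO libraries, against 45.8, 38.8, 27.9 and 64.1 CPM in HET libraries. The HET range enclosed the whole KO range. The log2 fold change was 0.05 (SE 0.23, 95% interval -0.42 to 0.53, edgeR adjusted p = 0.979), an interval wide enough to hold folds of 0.746 to 1.44. The interaction was 0.78 on the log2 scale (SE 0.32, 95% interval 0.10 to 1.45, unadjusted p = 0.0265, edgeR adjusted p = 0.228). After the leading component of the spread inside groups was added as a covariate, it was 0.82 and its edgeR adjusted p was 0.0423. The covariate is uncorrelated with the groups by construction, so it narrows the residual spread and leaves the group means nearly as they were. It was drawn from these same libraries, and with it 2693 of all genes passed the interaction in place of 41. The nanos3 call under it is therefore no support for a difference between the crosses.

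**Figure D2:**
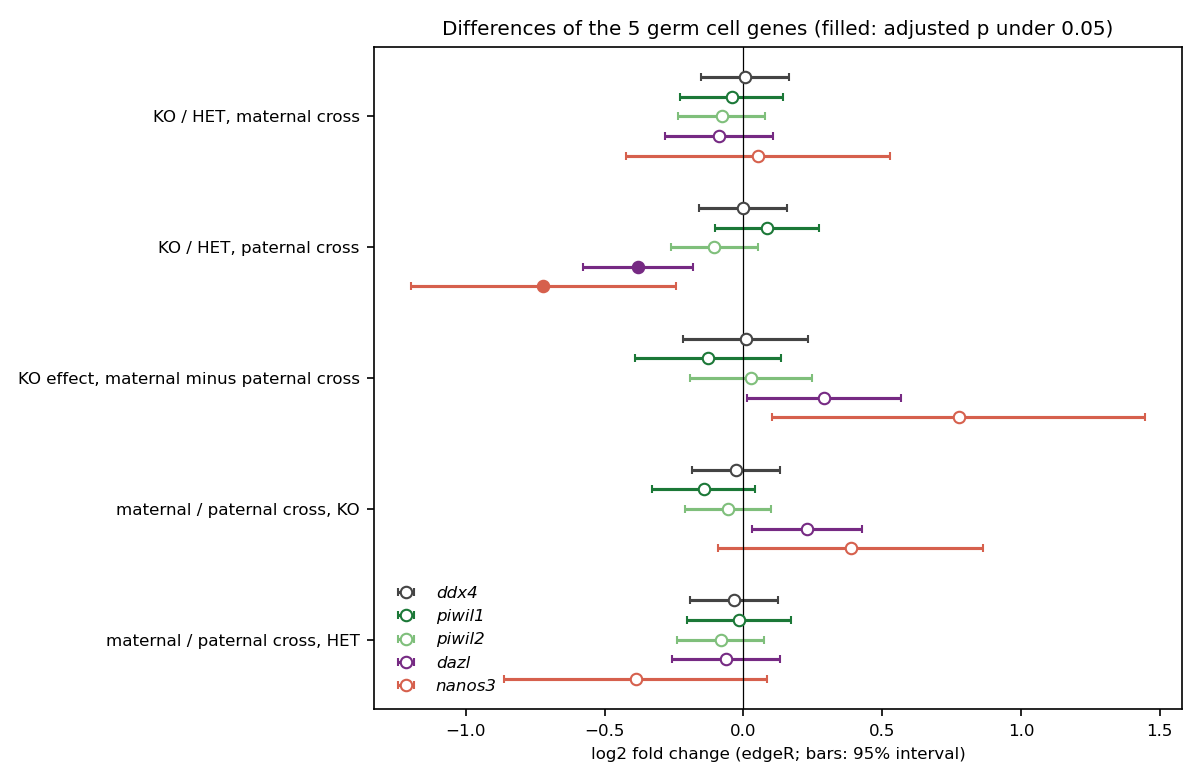
Log2 fold change of each germ cell gene in 5 comparisons (horizontal axis; points are edgeR estimates, bars their 95% intervals, filled points passed an adjusted p of 0.05; groups as labelled). In the paternal cross dazl, at -0.38, and nanos3, at -0.72, are filled, and all other points are open.

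Between the crosses, within a genotype, 0 of the 5 genes passed with edgeR or with DESeq2, and 1 among KO libraries and 0 among HET libraries had an unadjusted p under 0.05. So did 3391 of all 21683 genes among KO libraries and 5611 among HET libraries. Of all genes tested 1.59% passed among KO libraries, 0.881% as higher and 0.706% as lower in the maternal cross. Among HET libraries 3.92% passed, 2.74% as higher and 1.19% as lower. Among KO libraries dazl averaged 155 ± 14.6 CPM in the maternal cross and 132 ± 12.03 CPM in the libraries labelled paternal cross (SD, n = 4 each; log2 fold change 0.23, SE 0.09, unadjusted p = 0.0249, edgeR adjusted p = 0.241). Among HET libraries dazl averaged 165 ± 19.3 CPM in the maternal cross and 172 ± 8.83 CPM in the paternal cross (SD, n = 4 each; log2 fold change -0.06, SE 0.09, edgeR adjusted p = 0.677). As labelled, the order of dazl levels, from high to low, was thus paternal-cross HET, maternal-cross HET, maternal-cross KO and paternal-cross KO, and no neighbours in this order passed the threshold. With the paternal-cross labels exchanged, paternal-cross KO would be highest and paternal-cross HET lowest.

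For nanos3 the difference between the maternal and the paternal cross was 0.39 among KO libraries (SE 0.23, edgeR adjusted p = 0.437) and -0.39 among HET libraries (SE 0.22, edgeR adjusted p = 0.277). As labelled, its levels ran from paternal-cross HET at 57.7 ± 17.2 CPM, through maternal-cross KO at 45.8 ± 7.03 CPM and maternal-cross HET at 44.2 ± 15.2 CPM, to paternal-cross KO at 35.0 ± 5.73 CPM (SD, n = 4 each). Maternal-cross KO and HET did not differ beyond their spread, and paternal-cross HET was not tested against maternal-cross KO. The log2 fold changes between crosses of ddx4, piwil1 and piwil2 lay between -0.14 and -0.02 in both genotypes, and the smallest of their edgeR adjusted p values was 0.461, for piwil1 among KO libraries. These comparisons share libraries with the KO against HET comparisons.

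Set against ddx4 in the same library, a value that does not depend on the scaling between libraries, dazl and nanos3 showed the same paternal-cross order. The dazl counts came to 10.9 ± 1.41% of the ddx4 counts in the libraries labelled paternal-cross KO and 14.3 ± 2.19% in those labelled HET, and to 13.0 ± 1.48% in maternal-cross KO and 13.9 ± 2.13% in maternal-cross HET (SD, n = 4 each). Here the paternal-cross ranges overlapped, at 9.39 to 12.3% in KO and 11.9 to 16.4% in HET. The mean log2 ratio in KO minus that in HET was -0.39 for the paternal cross and -0.09 for the maternal cross.

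The nanos3 counts came to 2.90 ± 0.547% of the ddx4 counts in the libraries labelled paternal-cross KO and 4.89 ± 1.90% in those labelled HET, and to 3.84 ± 0.569% in maternal-cross KO and 3.75 ± 1.401% in maternal-cross HET (SD, n = 4 each). The KO and HET ranges overlapped in both crosses. In the paternal cross the Piwi genes kept closer to ddx4 than dazl and nanos3 did. The mean log2 ratio in KO minus that in HET was 0.09 for piwil1 and -0.10 for piwil2 among paternal-cross libraries, and -0.05 and -0.09 among maternal-cross libraries. Among maternal-cross libraries dazl, at -0.09, and nanos3, at 0.10, were about as close as piwil2. Percentages of ddx4 serve here as a reference within a library, not as a comparison of expression between genes, which would need transcript lengths.

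**Figure D3:**
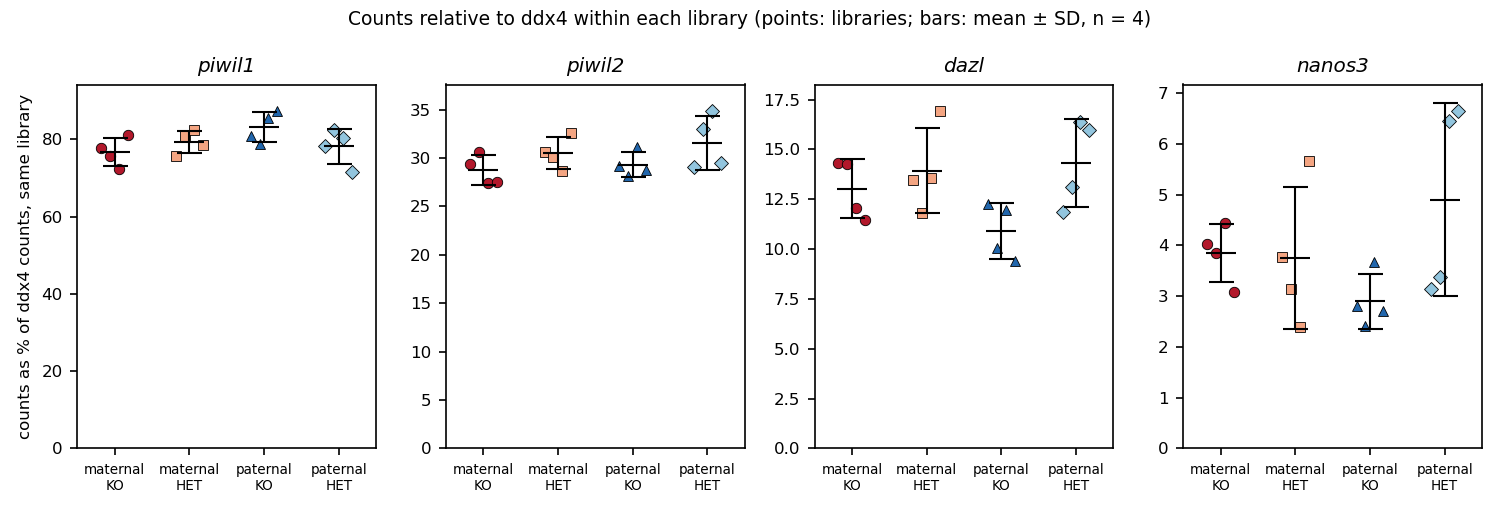
Counts of piwil1, piwil2, dazl and nanos3 as a percentage of the ddx4 counts of the same library (vertical axes from 0; horizontal axis, the 4 groups as labelled; points are libraries, bars are mean ± SD, n = 4). The dazl mean is lowest in paternal-cross KO, at 10.9%, against 13.0 to 14.3% in the other groups.

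The 5 genes did not all vary together from pool to pool. Over the 16 libraries dazl and nanos3 were positively correlated (Pearson's r = 0.722, permutation p = 0.0014, adjusted p = 0.007 over 10 pairs; Spearman's rho = 0.759, permutation p = 0.00089, adjusted p = 0.00445). So did ddx4 and piwil1 (r = 0.767, permutation p = 0.00042, adjusted p = 0.0042; rho = 0.776, permutation p = 0.00068, adjusted p = 0.00445). Across these pairs the sign was opposite. The piwil1 level ran against nanos3 (r = -0.685, permutation p = 0.00342, adjusted p = 0.0114; rho = -0.726, permutation p = 0.00164, adjusted p = 0.00547) and against dazl (r = -0.63, permutation p = 0.0095, adjusted p = 0.0237; rho = -0.653, permutation p = 0.00783, adjusted p = 0.0196).

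Without the 2 libraries farthest from the median of the first gene named, r was 0.678 for dazl with nanos3, 0.727 for ddx4 with piwil1, -0.539 for piwil1 with nanos3 and -0.484 for dazl with piwil1. All values are log2 CPM, so each pair shares a library total and its scaling, and the groups are part of the spread. With group means removed, dazl against piwil1 stood at r = -0.667 (permutation within groups, p = 0.00019, adjusted p = 0.0019; rho = -0.635, permutation p = 0.00352, adjusted p = 0.0176) and ddx4 against dazl at r = -0.625 (permutation within groups, p = 0.0013, adjusted p = 0.0065; rho = -0.659, permutation p = 0.00281, adjusted p = 0.0176). Without the 2 farthest libraries these were -0.699 and -0.709. By r the other 8 pairs did not pass, though piwil1 with nanos3 passed by rho (r = -0.711, permutation p = 0.0184, adjusted p = 0.0591; rho = -0.768, permutation p = 0.0149, adjusted p = 0.0495). Among those that did not pass were dazl with nanos3 (r = 0.603, permutation p = 0.0259, adjusted p = 0.0591) and ddx4 with piwil1 (r = 0.807, permutation p = 0.0296, adjusted p = 0.0591). Within the maternal and the paternal libraries r was 0.539 and 0.842 for dazl with nanos3, 0.444 and 0.823 for ddx4 with piwil1, -0.754 and -0.741 for piwil1 with nanos3, and -0.647 and -0.601 for dazl with piwil1. Under upper-quartile scaling 8 of the 10 pairs passed in place of 4. The leading component of the spread inside groups, taken over the other genes tested, held 31.8% of that spread. With it, group means removed, r was 0.651 for nanos3, 0.593 for dazl, 0.501 for piwil2, -0.22 for ddx4 and -0.369 for piwil1. How many pairs of other genes correlated as strongly was not counted. These correlations are thus not shown to be particular to the germ cell genes.

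**Figure D4:**
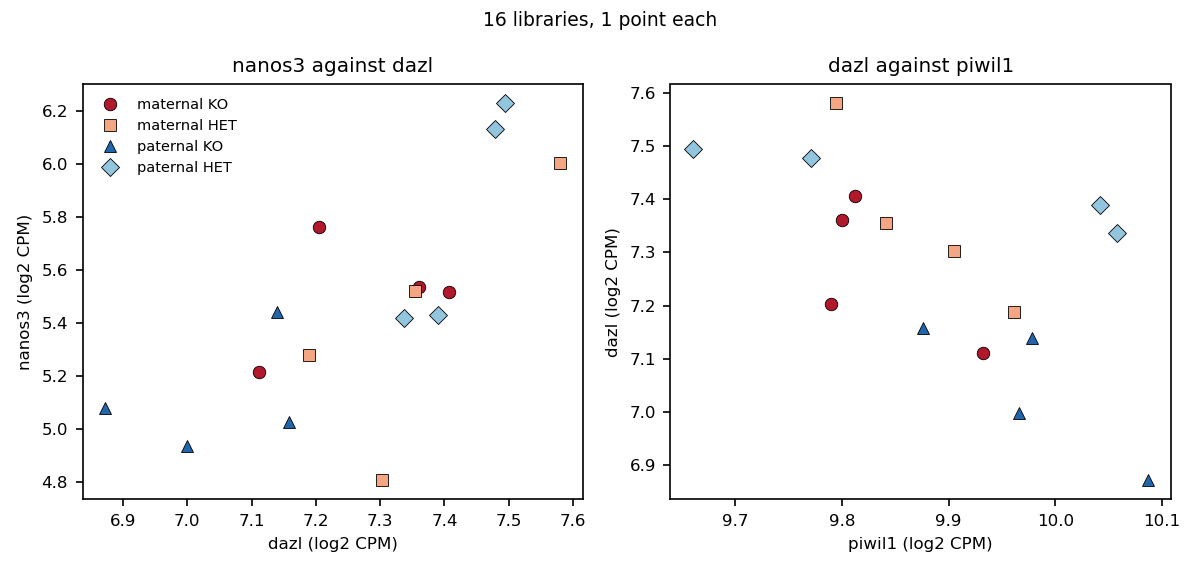
Left, nanos3 against dazl, and right, dazl against piwil1, in log2 CPM (1 point per library, 16 libraries; shapes and colours mark the 4 groups as labelled). The left points climb together (r = 0.722) and the right points descend (r = -0.63).

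Genes whose log2 CPM most resembled each germ cell gene over the 16 libraries were listed by Pearson's r, as a description. For ddx4 the nearest with a symbol was ddx43, which encodes another RNA helicase (r = 0.818), placed between ENSDARG00000094021 (r = 0.836) and ENSDARG00000100575 (r = 0.814). For piwil1 they included LEO1 (r = 0.866) and tdrd12, a Tudor-domain gene of the piRNA pathway (r = 0.848). For piwil2 they were AGBL5 (r = 0.906), NCKIPSD (r = 0.896) and TTC3 (r = 0.892). For dazl they were LMNB1, the gene for lamin B1 (r = 0.944), AKTIP (r = 0.942) and LIMA1 (r = 0.930). For nanos3 they were zgc:112185 (r = 0.968), TBP, the gene for the TATA-box binding protein (r = 0.950), and MPHOSPH6 (r = 0.949).

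Other genes of the germ line fell in the paternal cross in part. This list and those below were chosen with earlier results of these data known. Their counts beside the shares of all genes are therefore a description, not independent support. Of 16 tested genes for the piRNA pathway and the germ granule, 6 were lower and 0 higher in the libraries labelled paternal-cross KO, with a list median of -0.16 on the log2 scale against 0.02 over all genes tested. Of all genes, 9.14% were lower and 14.1% higher in KO as labelled, and these shares would change places with the labels. The smallest adjusted p values were those of ca15b, a germ plasm transcript (714 ± 128 CPM in KO and 1148 ± 146 CPM in HET, log2 fold change -0.68, edgeR adjusted p = 0.01), and gtsf1, a Piwi cofactor (252 ± 11.95 CPM in KO and 335 ± 45.2 CPM in HET, log2 fold change -0.41, edgeR adjusted p = 0.0156; SD, n = 4 each). Next came buc, the organizer of the Balbiani body of the oocyte, which the oocyte list also holds (log2 fold change -0.35, edgeR adjusted p = 0.0241), and tdrd7a, a germ granule Tudor gene (log2 fold change -0.23, edgeR adjusted p = 0.0257). The Tudor genes tdrd1, tdrd6 and tdrd9 did not pass (log2 fold change -0.06, -0.12 and 0.04). The count of 6 was 1 without HET replicate 3, 2 without KO replicate 2 or KO replicate 4, 3 without KO replicate 1 or HET replicate 2, and 3 under upper-quartile scaling, while the list median stayed between -0.20 and -0.13 without any 1 library and was between -0.21 and -0.09 under the other settings. Maternal-cross KO and HET differed in 0 of the 16 with edgeR and 0 with DESeq2, with 1 at an unadjusted p under 0.05 and a median of -0.07 against -0.0021 over all genes. In that cross 1 of the 16 had a positive log2 fold change. The interaction of genotype and cross passed in 0 of the 16 with edgeR, against 0.189% of all genes, with 0 at an unadjusted p under 0.05.

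Of 14 tested oocyte genes, 12 were lower and 0 higher in the libraries labelled paternal-cross KO, with a median of -0.36 against 0.02 over all genes and the same shares of 9.14% lower and 14.1% higher over all genes. The 4 with the smallest adjusted p were btg4, which acts in maternal mRNA decay (423 ± 77.3 CPM in KO and 721 ± 182 CPM in HET, log2 fold change -0.77, edgeR adjusted p = 0.0113), npm2b, a nucleoplasmin of the egg (log2 fold change -0.38, edgeR adjusted p = 0.0136), mos, the kinase of oocyte maturation (log2 fold change -0.61, edgeR adjusted p = 0.0156), and bmp15, an oocyte growth factor (log2 fold change -0.57, edgeR adjusted p = 0.0164). The count of 12 was 2 without KO replicate 4 or HET replicate 3, 6 without KO replicate 1 or 2, 7 without HET replicate 2 or 4, and 7 under upper-quartile scaling. The list median stayed between -0.44 and -0.32 without any 1 library. Maternal-cross KO and HET differed in 0 of the 14 with edgeR and 1 with DESeq2, with 5 at an unadjusted p under 0.05 and a median of -0.19. Of all 21683 genes tested 1931 had an unadjusted p under 0.05 in that comparison. In that cross 0 of the 14 oocyte genes had a positive log2 fold change. The interaction of genotype and cross passed in 0 of the 14 with edgeR, against 0.189% of all genes, with 2 at an unadjusted p under 0.05.

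The meiosis and early germ cell lists had 4 calls between them, against 23.2% of all genes called in this comparison, 14.1% as higher and 9.14% as lower. Of 21 tested meiosis genes 2 passed. In detail, msh5 was higher (log2 fold change 0.78, edgeR adjusted p = 0.0357) and psmc3ip lower (log2 fold change -0.36, edgeR adjusted p = 0.0157) in the libraries labelled paternal-cross KO. Of 9 early germ cell and spermatogonia genes 2 passed, a share near that of all genes. Here tex15 was higher (log2 fold change 1.05, edgeR adjusted p = 0.035) and e2f5 lower (log2 fold change -0.34, edgeR adjusted p = 0.0328). The tex15 gene was scarce, at 9 to 35 counts per library. It averaged 0.971 ± 0.330 CPM in KO and 0.470 ± 0.161 CPM in HET, with overlapping ranges (SD, n = 4 each). With a minimum count of 50 in the filter, 0 early germ cell genes were called higher. All 4 calls were lost without KO replicate 4 or without HET replicate 3. Without any 1 library the list medians lay between 0.02 and 0.28 for meiosis and between -0.19 and 0.02 for early germ cells. Maternal-cross KO and HET differed in 0 genes of both lists with edgeR or DESeq2, with 3 meiosis and 0 early germ cell genes at an unadjusted p under 0.05.

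**Figure D5:**
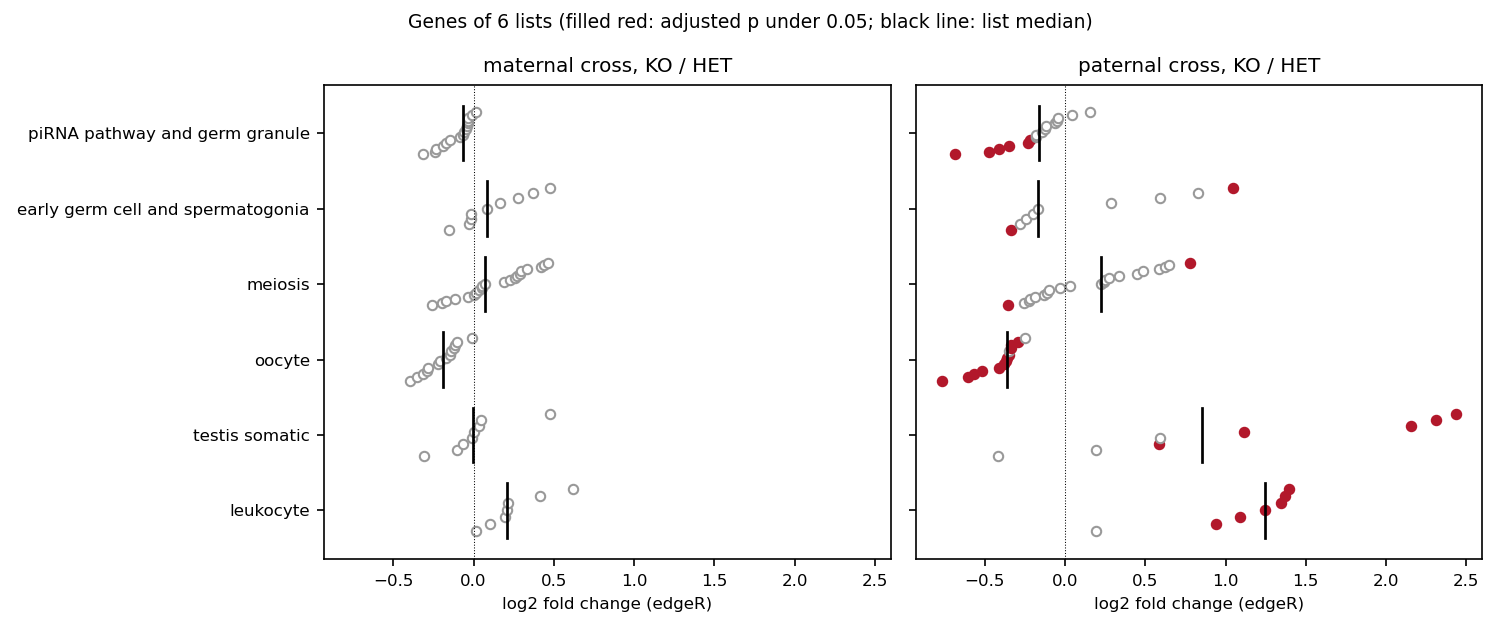
Log2 fold changes between KO and HET of the genes in 6 lists, in the maternal cross (left) and the paternal cross (right, groups as labelled); filled points passed an adjusted p of 0.05 and black lines are list medians. In the paternal cross 12 of 14 oocyte genes and 6 of 16 piRNA and germ granule genes are filled on the negative side, and in the maternal cross no point is filled.

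Genes listed as leukocyte, testis somatic and ovary somatic moved with the paternal-cross difference, where 14.1% of all genes were higher and 9.14% lower in KO as labelled. Markers of liver, gut and exocrine pancreas, and skeletal muscle did not pass there, with 0 of 6, 0 of 4 and 0 of 3 called by edgeR and 0 in each at an unadjusted p under 0.05, and 1 of 3 erythrocyte genes passed. Of all 21683 genes tested 8623 had an unadjusted p under 0.05 in that comparison. Of 7 tested leukocyte genes 6 were higher in the libraries labelled paternal-cross KO, led by ptprc, the common leukocyte antigen (37.3 ± 9.03 CPM in KO and 14.7 ± 4.01 CPM in HET, log2 fold change 1.34, edgeR adjusted p = 0.0066; SD, n = 4 each). Of 7 tested ovary somatic genes 4 were higher and 0 lower (median log2 fold change 0.585). Those higher were wnt4b (log2 fold change 1.60, at only 2 to 16 counts per library), fshr (0.88), gata4 (0.85) and nr5a2 (0.58). Those that did not pass were lhcgr (0.545), wnt4 (0.195) and rspo1, which was lower (-0.21). The listed genes cyp19a1a, foxl2a, foxl2b and inhbab had no symbol match. Of 8 tested testis somatic genes 5 were higher. The 4 with the smallest adjusted p were gsdf, a TGF-beta factor of supporting cells (log2 fold change 1.11, edgeR adjusted p = 0.0125), amh, the anti-Müllerian hormone gene (2.31, edgeR adjusted p = 0.0189), star, a steroid synthesis gene (2.44, edgeR adjusted p = 0.019), and cyp11c1, an androgen synthesis gene (2.15, edgeR adjusted p = 0.0264). Listed testis somatic genes that did not pass were dmrt1 (0.59, edgeR adjusted p = 0.1675), cyp17a1 (0.19, edgeR adjusted p = 0.29) and hsd17b3, which was lower (-0.42, edgeR adjusted p = 0.129). The listed genes sox9a, wt1a and nr5a1a had no symbol match. The count of 5 was 0 without KO replicate 4, 1 without HET replicate 3, and 2 without HET replicate 2 or 4, while the list median stayed between 0.68 and 1.06 without any 1 library. The interaction of genotype and cross passed in 0 leukocyte, 0 testis somatic and 0 ovary somatic genes with edgeR, against 0.189% of all genes. Its unadjusted p was under 0.05 for 4 of 7 leukocyte, 4 of 8 testis somatic and 0 of 7 ovary somatic genes, and for 3978 of all 21683.

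Summed over each list, leukocyte genes took 423 to 754 CPM in the libraries labelled paternal-cross KO and 201 to 339 CPM in those labelled HET. Testis somatic genes took 506 to 783 CPM in KO and 347 to 407 CPM in HET, and oocyte genes 13080 to 16330 CPM in KO and 16780 to 20970 CPM in HET. Between maternal-cross KO and HET these sums overlapped, at 299.7 to 495 CPM in KO and 231 to 595 CPM in HET for leukocyte genes. Testis somatic genes took 394.5 to 617 CPM in KO and 382.5 to 696 CPM in HET, and oocyte genes 12700 to 16390 CPM in KO and 15160 to 18510 CPM in HET. Each sum is carried mostly by its most abundant genes. Over the 16 libraries gsdf and cyp17a1 averaged 227 and 185 CPM, and cd74a and cd74b 167 and 109 CPM. Among oocyte genes zp2.3, zp2.1 and zp3b averaged 5393, 3170 and 3100 CPM. How many of all genes separated as these sums did was not counted. The part of the differences between these sums in the falls of dazl and nanos3 was not tested.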

How the data were processed

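Gonad mRNA was measured in 16 libraries, 4 per group. The authors deposited raw counts per Ensembl gene, whole numbers with 1 column per library. The submitters' processing notes name STAR 2.4.1d, featureCounts 1.4.6, DESeq2 and the build danRer10; the annotation and the strand setting are not given in the sources used here, so genes sharing reads with an overlapping or near-identical gene are uncertain. All columns matched a sample title. Genes were filtered with filterByExpr (minimum count 10), scaled by TMM and tested with edgeR 4.0.16 (R 4.3.3), with 1 coefficient per group over all 16 libraries and Benjamini-Hochberg adjustment. Each SE was taken as the absolute log2 fold change over the root of its F statistic. Log2 CPM used a prior count of 2. Correlations used 100000 permutations. The fit was tested on simulated data. Replicate pairs differed by more than sampling noise (chi-square per degree of freedom 6.46 or more). Symbols came from a table covering 26121 of 31953 identifiers, which often gives the human symbol; list genes without an exact match were left out. Genes were named by rule: the 5 germ cell genes, the 3 nearest patterns of each (1 of them is not reported here), and up to 4 called genes per list with the smallest adjusted p. The members and lists were chosen with earlier results of these data known. Sequences were not used here. Alternatives were other scalings, filters, DESeq2 1.42.0, smaller fits, a replicate block, an axis covariate and leaving out each library.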

Additional observations from a re-analysis of the deposited data

Results flagged for a closer look

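At the mir214 locus KO minus HET had opposite signs in the maternal and the paternal cross. KO minus HET was -0.148 CPM in the maternal cross and 0.173 CPM in the paternal cross as labelled, a difference of -0.321 CPM (exact permutation of KO and HET within each cross, 4900 relabellings, two-sided, p = 0.00122; 0.00367 after adjustment over 3 tests). It rests on sums of 5 counts in KO and 19 in HET in the maternal cross, and 19 in KO and 2 in HET in the paternal cross. The permutation takes KO and HET as alike within each cross. Its p therefore does not test whether both crosses share an equal difference.

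Dixon's test marked 1 library of a group of 4 in 7 of the 56 sets tested, where chance gives about 1 in 20. For the germ cell genes these were piwil1 in maternal-cross KO replicate 4 (high, 977 CPM), piwil2 in maternal-cross KO replicate 2 (high, 365 CPM) and piwil2 in maternal-cross HET replicate 3 (low, 333 CPM). Depth was low in paternal-cross KO replicate 2, with 22.6 M counts, and in replicate 1 of paternal-cross HET, with 26.4 M counts. In maternal-cross HET, the testis somatic sum was high in replicate 3 (696 CPM) and the gut and pancreas sum in replicate 1 (253 CPM).

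Markers of neighbouring tissue were uneven over the maternal-cross libraries. The gut and pancreas sum was 43.4, 84.3, 698 and 3338 CPM in maternal-cross KO, against 253, 37.2, 39.6 and 29.1 CPM in maternal-cross HET. The liver sum was 22.7, 12.4, 36.4 and 184 CPM in maternal-cross KO, against 18.6, 16.3, 15.6 and 9.16 CPM in maternal-cross HET. The groups overlapped in both, and replicate 4 of maternal-cross KO was highest in both. Skeletal muscle was uneven too, but highest in replicate 3 of maternal-cross HET. Its sum was 401, 196, 162 and 374 CPM in maternal-cross KO, against 594, 219, 1042 and 108 CPM in maternal-cross HET. With edgeR 0 of 4 gut and pancreas genes passed (3 at an unadjusted p under 0.05, median log2 fold change 3.44) and 0 of 6 liver genes (5 at an unadjusted p under 0.05, median 2.37). Of all 21683 genes tested 1931 had an unadjusted p under 0.05 between maternal-cross KO and HET. The part of these tissue markers in the values of the 5 germ cell genes was not tested.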

How the results depend on the processing

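In the paternal cross dazl was lower in the libraries labelled KO in all 24 alternatives, at -0.42 to -0.30 on the log2 scale, and passed in 23. There nanos3 was lower in all 24, at -0.84 to -0.57, and passed in 18. With the replicate block its edgeR adjusted p was 0.0501, which left 1 germ cell gene past the threshold in the paternal cross. Leaving out 1 library at a time left 0 to 2. The axis covariate gave 1 germ cell gene in the interaction. In the other comparisons 0 of the 5 passed under every alternative run.

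Counts over all genes moved more. The maternal-cross KO comparison gave 43 genes, against 209 with DESeq2, 4 with only its groups fitted, 21 with the block, 538 with the axis covariate and 19 to 131 without 1 library. The paternal-cross comparison gave 5034, against 8484 with the covariate and 1026 to 6084 without 1 library; 3052 were higher and 1982 lower, or 3577 and 1101 under upper-quartile scaling. The interaction gave 41 (13 more positive, 28 more negative), against 19 under upper-quartile scaling (8 and 11), 70 without a filter, 637 with DESeq2, 13 with the block, 2693 with the covariate and 14 to 181 without 1 library. Between crosses, KO libraries gave 344, against 837 with DESeq2, 134 with the block, 1695 with the covariate and 109 to 495 without 1 library. HET libraries gave 851, against 2055 with DESeq2, 193 with only its groups fitted, 345 with the block, 4618 with the covariate and 146 to 1991 without 1 library. The covariate is uncorrelated with the groups, so it lowers the residual spread by construction; the cause of the other shifts was not tested.

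Same-numbered libraries did not pair: the correlations of their deviations from the group means lay between -0.412 and 0.301, and at most 3 of the 8 libraries of a comparison correlated best with their own number. Under upper-quartile scaling 8 pairs of germ cell genes correlated in place of 4, and 5 in place of 2 with group means removed. The list counts and the removal of libraries for the mir214 locus were added after seeing the data; that locus stayed higher in paternal-cross KO, by 0.139 to 0.196 CPM, in tests that 3 against 4 libraries cannot bring under the threshold.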

Other observations

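Other lists gave these values in the paternal cross as labelled, with edgeR. Over all genes tested 14.1% were higher and 9.14% lower in KO. These shares would change places were the labels exchanged. Of 7 tested ovary somatic genes 4 were higher in KO and 0 lower (median log2 fold change 0.58), and their summed level was 30.4 to 39.2 CPM in KO and 21.4 to 28.4 CPM in HET. The listed genes cyp19a1a, foxl2a, foxl2b and inhbab had no symbol match and are not part of these values. Of 6 tested spermatid genes 2 were lower and 0 higher (median -0.11). Of 7 proliferation genes 2 were lower and 0 higher (median -0.26), with summed levels of 2205 to 2873 CPM in KO and 2905 to 3374 CPM in HET. Their relation to dazl and nanos3 was not tested.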
